A study of Mus musculus with 8 samples.

Results

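The Krüppel-like factors (KLFs) studied here are 9 transcription factor genes, Klf2, Klf3, Klf4, Klf6, Klf7, Klf9, Klf10, Klf11 and Klf13, followed in RAW264.7, a mouse macrophage line. They were found as every array probe whose gene name is one of these symbols, which gave 17 probes of 56605 on the array and 9 genes of 37325 named or otherwise identified features. Total RNA was hybridised to 8 one-colour arrays, 1 for each condition. Of these, 4 cultures were pretreated with melatonin at 1 mM for 1 h and then had no LPS or LPS for 1, 3 or 5 h, and 4 had no melatonin and the same LPS times. LPS came from Escherichia coli O55:B5 and was used at 100 ng/ml. All cultures grew in RPMI1640 with fetal bovine serum, and no genetic change or vehicle control is given. The layout asks how LPS alters transcripts over time and how melatonin alters them with and without LPS.

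KLF proteins share zinc fingers at their C-terminal end that bind GC-rich and CACCC sequences, and they differ in the N-terminal regions that recruit co-activators or co-repressors. In macrophages KLF2 and KLF4 are known as restraints on inflammatory gene expression, KLF4 also as a factor of alternative activation, and KLF6 as a partner of NF-kB that favours inflammatory activation. LPS, a cell wall component of Gram-negative bacteria, acts through Toll-like receptor 4, and melatonin is the hormone of the pineal gland.

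Levels are log2 of the processed signal minus log2 of the array's own 75th percentile, so that 0 is the level of the 75th percentile spot, and levels of different probes are not compared with each other. All 8 markers of macrophages were well above background on all 8 arrays, and their summed level was 786 to 885 times the 75th percentile with melatonin, against 878 to 1053 without. Of the 4 B cell markers 0 were above background on all 8 arrays, though each was above it on at least 1. Their sums were 0.0918 to 0.299 with melatonin and 0.108 to 0.567 without. Cd8a and Ncr1 of the T and NK cell markers, Col1a1, Col3a1 and Pdgfra of fibroblasts, and Epcam, Krt8 and Krt18 of epithelium were above background on 0 arrays, while Cd3d and Cd3e were above it on all 8. The T and NK cell sums were 1.32 to 1.46 with melatonin and 1.70 to 1.94 without, the fibroblast sums 0.0891 to 0.162 and 0.0994 to 0.218, and the endothelial and epithelial sums 0.0559 to 0.370 and 0.0512 to 0.132. All arrays lay on 1 slide, where each LPS time had its own column and each melatonin arm its own row. LPS therefore cannot be told apart from slide column or from hours in culture, and melatonin cannot be told apart from slide row. A treatment entry gives 3 of the 4 melatonin samples an LPS time 1 step later than their titles and gives no treatment for the one titled 5 h. The titles were followed. The times of that entry leave out the array titled 5 h with melatonin, and the only 0 h array is then the one without melatonin. With them no LPS call was made for any gene, member or not.

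Of the 9 members 7 were measurable. Klf2, Klf4, Klf6, Klf7, Klf9, Klf10 and Klf13 each had a probe well above background on all 8 arrays. Klf3, a repressor that works through the CtBP co-repressors, had 3 probes, and Klf11, a repressor of the TGF-beta inducible class, had 1, and these were well above background on 0 of 8 arrays. No level or change is given for Klf3 and Klf11. The measured probe of Klf2 lies at chr8:74845137-74845196 (build mm9), that of Klf4 at chr4:55540833-55540892, that of Klf6 at chr13:5869371-5869430 and that of Klf7 at chr1:64082265-64082324. Those of Klf9, Klf10 and Klf13 lie at chr19:23240410-23240469, chr15:38224255-38224314 and chr7:71082854-71082913. Each was designed on the RefSeq transcript of its gene, and the files do not say which exon or UTR holds it.

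Promoter windows were available from RefSeq (GRCm38.p6) for 8 of the 9 members, all but Klf10. The 250 bases before the transcription start are printed for Klf2 and Klf4, both lower after LPS, and for Klf6 and Klf7, both higher, 5′ to 3′ on the gene's strand. Capitals mark matches on either strand to the GC box, GGGCGG. They also mark matches to the shorter CACCC box, which takes its name from its letters. KLF proteins are known to bind both.
Klf2 (chr8:72318812-72319061, + strand): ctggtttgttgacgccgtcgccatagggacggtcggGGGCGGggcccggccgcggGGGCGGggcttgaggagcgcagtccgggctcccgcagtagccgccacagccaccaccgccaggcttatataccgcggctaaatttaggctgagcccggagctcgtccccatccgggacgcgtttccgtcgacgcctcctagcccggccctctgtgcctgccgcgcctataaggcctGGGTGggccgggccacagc
Klf4 (chr4:55532476-55532725, - strand): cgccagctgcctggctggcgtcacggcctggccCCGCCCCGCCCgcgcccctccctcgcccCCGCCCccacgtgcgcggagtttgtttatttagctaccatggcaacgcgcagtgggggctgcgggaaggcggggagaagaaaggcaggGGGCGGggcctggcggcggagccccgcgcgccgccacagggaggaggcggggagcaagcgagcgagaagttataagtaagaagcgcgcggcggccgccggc
Klf6 (chr13:5861239-5861488, + strand): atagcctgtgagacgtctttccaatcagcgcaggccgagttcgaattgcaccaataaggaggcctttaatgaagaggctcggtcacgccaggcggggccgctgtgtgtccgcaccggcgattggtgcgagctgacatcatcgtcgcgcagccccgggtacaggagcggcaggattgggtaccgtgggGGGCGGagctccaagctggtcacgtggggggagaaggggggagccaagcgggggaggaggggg
Klf7 (chr1:64121390-64121639, - strand): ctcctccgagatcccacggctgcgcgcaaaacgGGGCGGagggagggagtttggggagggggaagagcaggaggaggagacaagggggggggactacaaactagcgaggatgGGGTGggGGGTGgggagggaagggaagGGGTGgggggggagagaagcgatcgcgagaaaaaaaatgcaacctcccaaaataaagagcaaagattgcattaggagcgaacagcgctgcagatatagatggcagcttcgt

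A GC box match occurred in 7 of the 8 windows, the exception being Klf9, and in 32.7% of the 32851 mouse windows of the same length. Klf4 had 4 matches, of which the pair from -217 to -207 share a base, against 2 in Klf2 and 1 each in Klf6 and Klf7. CACCC matches numbered 3 in Klf7 and 1 in Klf2, with 0 in Klf4 and Klf6, and 52.0% of all windows held at least 1. The Klf2 window also held the MEF2 match CTAAATTTAG from -118 to -109, a kind of match present in 0.508% of windows. That factor is known to drive Klf2 in endothelium downstream of the kinase ERK5. The core of the cAMP response element, TGACG, occurred in the windows of Klf2, Klf4, Klf9 and Klf13 and in 17.8% of all windows. The E-box CACGTG occurred in Klf4, Klf6 and Klf11 and in 6.02%. Klf9 alone of the 8 held an AP-1 match (TGANTCA), which 6.75% of all windows hold and which shares bases with its CACCC match. The TATA box (letters TATAAA) had 0 matches in these 8 windows, against 12.4% of all. The motifs of SRF and NF-kB, searched by their usual consensus, also had 0, against 1.47% and 7.25% of all. A match is a string of letters, and binding was not measured.

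LPS lowered 4 of the measured KLF genes and raised a pair of them by 5 h. Klf2, Klf4, Klf10 and Klf13 fell, Klf6 and Klf7 rose, and Klf9 did not pass the test at any time with all 8 arrays. In RNA of whole cultures, fewer cells with a transcript and less of it per cell cannot be told apart. Tests were moderated limma tests of both arrays of an LPS time against both arrays without LPS, in a model with melatonin as a second term. A gene was called where its p, adjusted by Benjamini-Hochberg over 20076 genes, was under 0.05. Of the 7 members 6 were called at 5 h, 2 raised and 4 lowered, where 44.2% of all genes were called (24.9% higher, 19.4% lower). At 3 h 5 were called, 1 raised and 4 lowered, where 33.7% of all genes were called (18.6% higher, 15.1% lower). At 1 h 0 were called, where 1.96% of all genes were (1.67% higher, 0.284% lower). An unadjusted limma p under 0.05 was found for 0 members at 1 h and for 2999 of the 20076 genes. The share of raised among all called genes was 55.2% at 3 h and 56.2% at 5 h, and 42.4% and 43.2% with quantile normalization. No source says that a condition was cultured more than once, so p-values reflect the spread among single arrays alone, including any change of the melatonin effect over time.

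**Figure D1:**
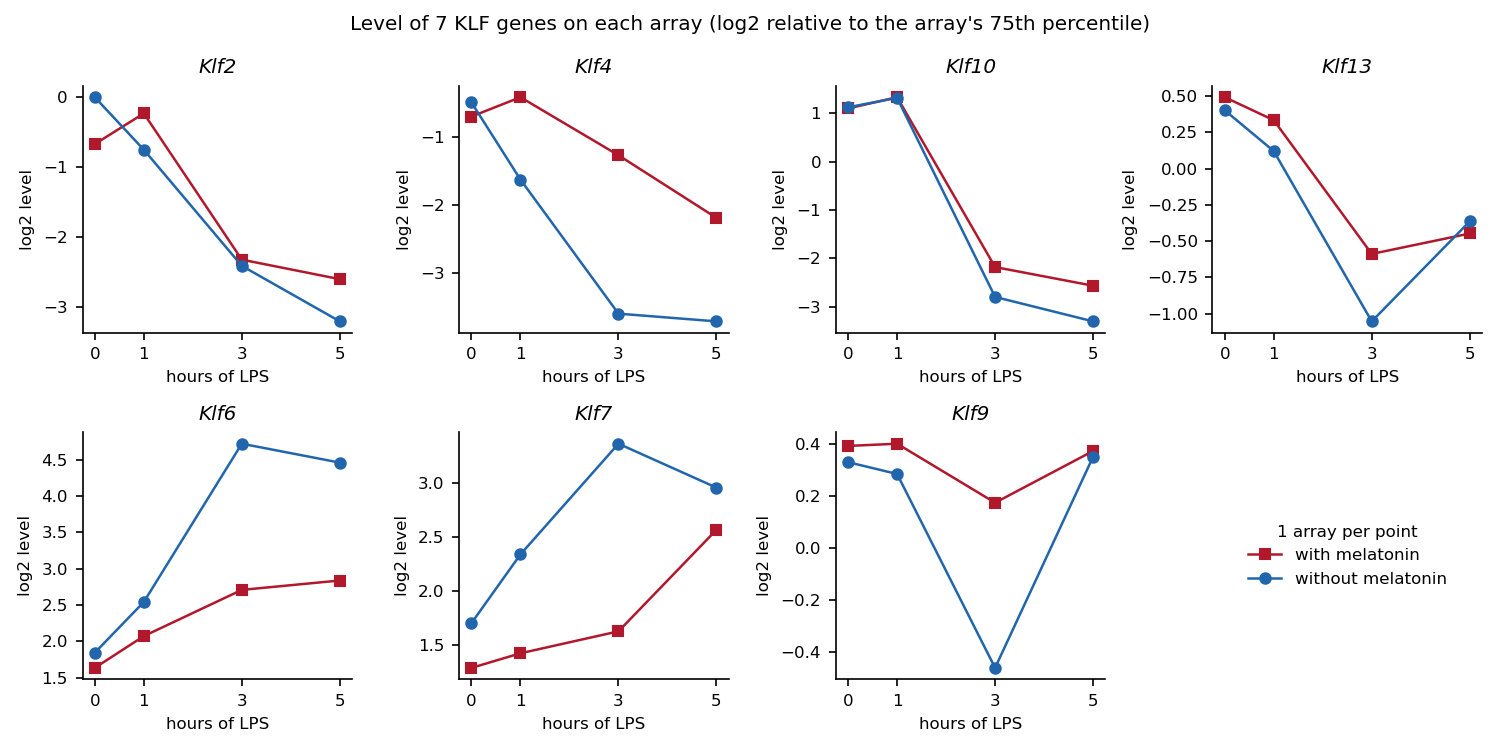
Level of each measured KLF gene on the y axis (log2 relative to the array's 75th percentile, a different range in each panel) against hours of LPS on the x axis, with melatonin as red squares and without as blue circles, 1 array per point. Klf10 lies above 1 at 0 and 1 h and below -2 at 3 and 5 h in both arms, while Klf4, Klf6 and Klf7 lie apart between the arms at 3 h.

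Among the members that fell, Klf2, which keeps T cells and endothelium quiescent, changed mostly between 1 and 3 h. Its level was -0.68, -0.24, -2.33 and -2.61 log2 at 0, 1, 3 and 5 h with melatonin, against -0.01, -0.76, -2.42 and -3.21 without. The 4 arrays at 3 and 5 h were all lower than the 4 at 0 and 1 h, whichever the arm. Of the 7 steps between neighbours in the order of its 8 levels, 3 were larger than 0.31, the fit's SD of a single array, and the largest lay between the 1 h array without melatonin and the 3 h array with it (1.57). In limma the difference was -2.03 at 3 h (SE 0.31, adjusted p = 0.00641), and -2.57 at 5 h (SE 0.31, adjusted p = 0.00213). The 3 h call ended when the 3 h array with no melatonin was left out (adjusted p = 0.0523).

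Klf4 is a factor of monocyte differentiation and alternative macrophage activation that is also used to make pluripotent stem cells. Each of its levels is from 1 array. A limma term for a different LPS response in the arms was not called for it (adjusted p = 0.908). Its level was -0.70, -0.41, -1.27 and -2.19 log2 at 0, 1, 3 and 5 h with melatonin, against -0.49, -1.63, -3.60 and -3.72 without. The arms were close at 0 h, and from 1 h on each array with melatonin was higher than its partner without. The mean difference over both arms was -1.84 at 3 h (limma, SE 0.55, adjusted p = 0.0474) and -2.36 at 5 h (SE 0.55, adjusted p = 0.0170). Its fit's SD of 1 array, 0.55, was the largest of the 7 members. With the 0 h array without melatonin left out the LPS difference was -0.89 at 3 h and -1.41 at 5 h. The 3 h value was -1.10 without the 3 h array of that arm and -2.80 without the 0 h array with melatonin. The 3 h call stood in 5 of 17 alternatives. It ended with quantile normalization (adjusted p = 0.0503) and with the deposited log2 table (adjusted p = 0.0515). It ended too without an intensity trend (adjusted p = 0.0862), with a common floor (adjusted p = 0.0969) and without a filter on dim probes (adjusted p = 0.113). The treatment entry's times also ended it, as did leaving out any array but the 2 with melatonin at 0 and 3 h. The 5 h call ended without the 5 h array with melatonin (adjusted p = 0.0623) or the one without (adjusted p = 0.104).

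Klf10, first known as a TGF-beta inducible early gene and a repressor that recruits SIN3, had the widest range of the 7, 4.64 log2. Its level was 1.10, 1.33, -2.18 and -2.57 at 0, 1, 3 and 5 h with melatonin, against 1.12, 1.31, -2.80 and -3.31 without. A gap of 3.28 separated the 4 arrays at 0 and 1 h from the 4 later ones. The limma difference was -3.60 at 3 h (SE 0.22, adjusted p = 0.000536) and -4.05 at 5 h (SE 0.22, adjusted p = 0.000279). Its second probe, on the variant 2 transcript, was well above background on 0 of 8 arrays.

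Klf13, which in T cells activates the chemokine gene Ccl5, was lowest at 3 h. Its level was 0.49, 0.33, -0.59 and -0.45 log2 at 0, 1, 3 and 5 h with melatonin, against 0.40, 0.12, -1.05 and -0.36 without. All arrays at 3 and 5 h lay below all at 0 and 1 h. Limma gave -1.27 at 3 h (SE 0.14, adjusted p = 0.00273) and -0.85 at 5 h (SE 0.14, adjusted p = 0.00609). Klf10 and Klf13 were called at both times in 16 of 17 alternatives, the exception being the LPS times of the treatment entry.

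The members that rose were Klf6 and Klf7. Klf6, an early response gene that acts with NF-kB, stood at 1.63, 2.07, 2.71 and 2.84 log2 at 0, 1, 3 and 5 h with melatonin, against 1.84, 2.54, 4.72 and 4.46 without. The 3 and 5 h arrays without melatonin were the highest, with a gap of 1.62 to the next array, the one at 5 h with melatonin. Below that gap 1 of 5 steps exceeded its SD of 1 array, 0.45. Limma gave 1.98 at 3 h (SE 0.45, adjusted p = 0.0211) and 1.91 at 5 h (SE 0.45, adjusted p = 0.0178). The 3 h call ended without a filter on dim probes and with a common floor (adjusted p = 0.0543 each). Both calls ended when the 0 h array with no melatonin was left out (adjusted p = 0.119 and 0.100), and each ended without the same arm's array of its own time (adjusted p = 0.128 and 0.119).

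Klf7, known from the growth of nerve fibres and as a brake on fat cell formation, stood at 1.29, 1.42, 1.63 and 2.57 log2 at 0, 1, 3 and 5 h with melatonin, against 1.70, 2.34, 3.37 and 2.96 without. Its highest array without melatonin was that at 3 h, and with melatonin that at 5 h. Limma gave a difference of 1.00 at 3 h, which missed the threshold (SE 0.33, adjusted p = 0.0624), and a rise of 1.27 at 5 h (SE 0.33, adjusted p = 0.0245). With 1 array left out the 3 h value ranged from 0.42 to 1.58, the highest being without the 3 h array with melatonin. The 5 h call stood in 11 of 17 alternatives. It ended without a filter on dim probes (adjusted p = 0.0591), with a common floor (adjusted p = 0.0583) and without an intensity trend (adjusted p = 0.0510). It also ended without the 0 h array with no melatonin (value 0.97), without the 5 h array with melatonin (value 0.95) and with the treatment entry's times.

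Klf9, a gene known to respond to glucocorticoid and thyroid hormone, moved least, over 0.86 log2 in all. Its level was 0.39, 0.40, 0.18 and 0.37 log2 at 0, 1, 3 and 5 h with melatonin, against 0.33, 0.29, -0.46 and 0.35 without. A single step exceeded its SD of 1 array (0.17), that between the 3 h array without melatonin and the others. Limma gave -0.50 at 3 h (SE 0.17, adjusted p = 0.0644) and 0.00066 at 5 h (SE 0.17, adjusted p = 0.998). With 1 array left out the 3 h value ranged from -0.79 to -0.22, the lowest being without the 3 h array with melatonin. Over all genes the median range was 0.89 log2.

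**Figure D2:**
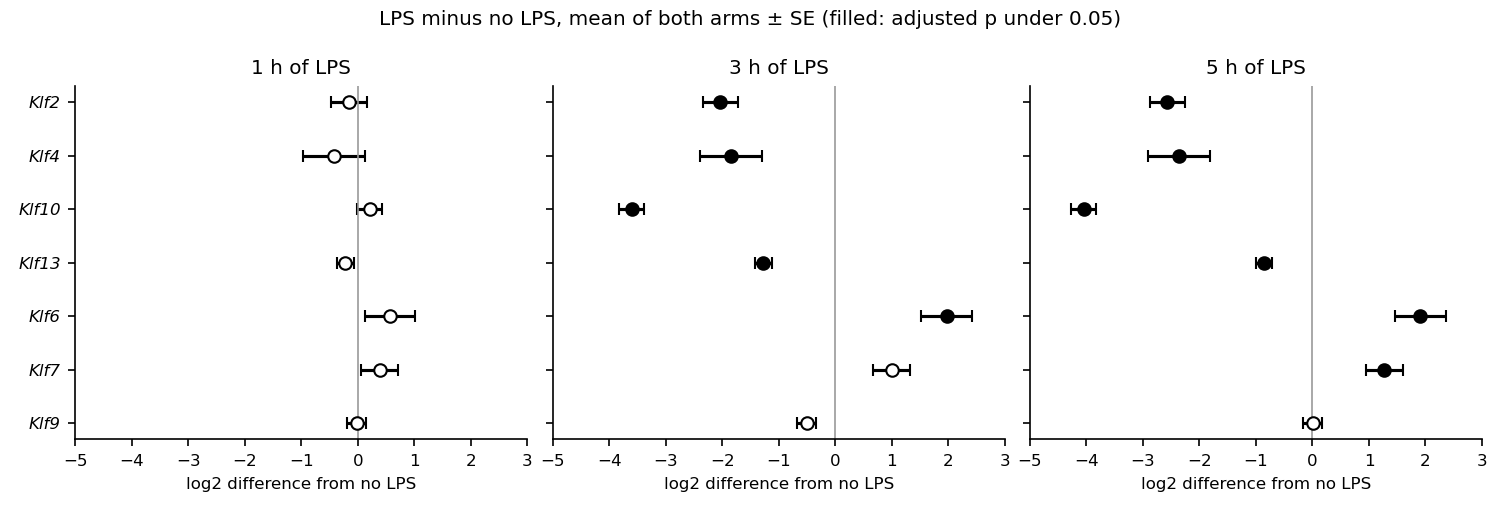
Limma difference of LPS minus no LPS for each member (x axis, log2) at 1, 3 and 5 h, as the mean over both arms with its SE, filled where the adjusted p was under 0.05. At 1 h 0 of 7 members were called. At 3 h Klf2, Klf4, Klf10 and Klf13 were called to the left and Klf6 to the right. Klf7 also lay to the right at 3 h and Klf9 to the left, but neither was called. At 5 h Klf7 was called as well.

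Markers of cell types moved with LPS as well. Of 8 macrophage markers 3 were raised at 5 h, Cd14 by 2.13 (limma, adjusted p = 0.000367), Adgre1 by 1.39 (adjusted p = 0.00185) and Spi1 by 0.83 (adjusted p = 0.0284). Csf1r and Lyz2 were lowered, with -1.45 (adjusted p = 0.00137) and -0.47 (adjusted p = 0.000937). Of all genes 24.9% were called higher at 5 h and 19.4% lower. Of the markers of other cells Cd79b, a B cell gene, was at least 5.03-fold higher (adjusted p = 0.00437), Cd3d of T cells rose by 1.52 (adjusted p = 0.00287) and Col1a2 of fibroblasts by 1.08 (adjusted p = 0.0374). Kdr of endothelium was called too (adjusted p = 0.0354), but it was well above background on 0 of the 4 arrays at 0 and 5 h and gets no fold. In multiples of the 75th percentile signal, the macrophage sum was 786 and 878 at 5 h with and without melatonin, against 885 and 1021 at 0 h, and the B cell sum was 0.299 and 0.567, against 0.157 and 0.108. The part of these markers in the LPS changes of the members was not tested.

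Between 1 and 3 h the changes of Klf10, Klf13 and Klf2 passed the test. At 3 h against 1 h Klf10 differed by -3.81 (SE 0.22, adjusted p = 0.00166), Klf2 by -1.87 (SE 0.31, adjusted p = 0.0174) and Klf13 by -1.05 (SE 0.14, adjusted p = 0.0111) in limma. These are 3 of 7 members, all lowered, where 15.2% of all genes were called, 8.42% higher and 6.83% lower. The share raised among all called genes was 55.2%, and 42.7% with quantile normalization. Klf4 had -1.42 (adjusted p = 0.136), Klf6 1.41 (adjusted p = 0.0879) and Klf7 0.62 (adjusted p = 0.250). The calls of Klf2 and Klf13 ended, leaving Klf10, without the 1 h or the 3 h array without melatonin or the 1 h array with it. That of Klf2 also ended without the 3 h array with melatonin (value -1.84). At 5 h against 3 h limma called 0 members, where 0.0946% of all genes were called (0.0349% higher, 0.0598% lower). An unadjusted limma p under 0.05 was found for 2 members, Klf9 at 0.51 and Klf13 at 0.42, and for 2937 of all 20076 genes.

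Melatonin went with lower Klf6 and Klf7. With 4 arrays against 4 matched by LPS time, limma gave -1.08 log2 for Klf6 (SE 0.32, adjusted p = 0.0404) and -0.87 for Klf7 (SE 0.23, adjusted p = 0.0314), and each was lower with melatonin at 4 of 4 times. These are 2 of 7 members, where 40.6% of all genes were called, 25.3% lower and 15.3% higher, so that the members' share is not above the background. Klf4 had the largest difference, 1.22, with an adjusted p of 0.0504 (SE 0.39), and was higher with melatonin at 3 of 4 times. Klf10 had 0.34, Klf9 0.21, Klf13 0.17 and Klf2 0.14, with adjusted p between 0.131 and 0.640. Of all genes called for melatonin 37.7% were raised, and 52.6% with quantile normalization, while Klf6 and Klf7 were called lower with both scalings. Without either 3 h array the value of Klf7 was -0.57, still called. The call of Klf7 ended without either 1 h array (adjusted p = 0.0903 and 0.0894), and that of Klf6 without any of the 6 arrays with LPS (adjusted p between 0.0570 and 0.132). With melatonin 5 of 8 macrophage markers were also lowered, Cd14, Cd68, Fcgr1, Itgam and Lyz2. The lymphocyte marker genes Cd79b, Cd3d and Cd3e were lowered too, by limma values of -1.82, -0.47 and -0.37 (adjusted p = 0.0254, 0.0442 and 0.00907), Cd79b being well above background on part of the arrays only. The part of these markers in the values of the members was not tested.

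**Figure D3:**
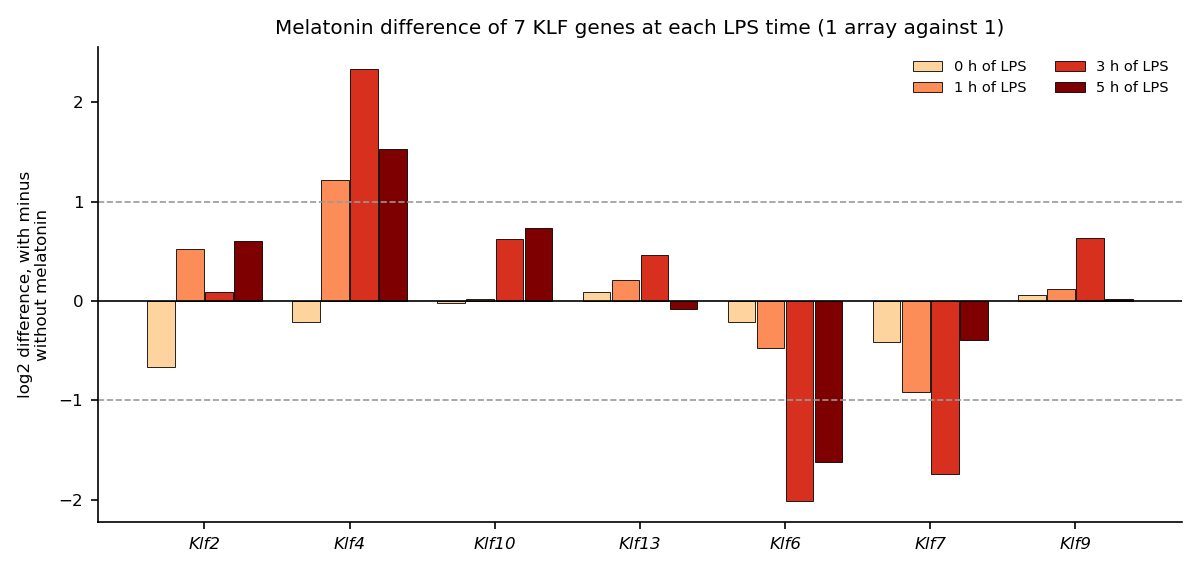
Level with melatonin minus level without for each member (y axis, log2) at 0, 1, 3 and 5 h of LPS, 1 array against 1, with dashed lines at a 2-fold difference. Klf4 lies above the upper line from 1 h on, and Klf6 and Klf7 lie below the lower line at 3 h.

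Time by time, with 1 array against 1 and no test, the arms stood furthest apart at 3 h for Klf4, Klf6, Klf7, Klf9 and Klf13. For Klf2 they did so at 0 h (-0.67) and for Klf10 at 5 h (0.74). Klf4 was 5.05-fold higher with melatonin at 3 h, after 2.32-fold at 1 h, and 2.88-fold higher at 5 h. Klf6 with melatonin had 0.248 of its level without it at 3 h and 0.325 at 5 h, and Klf7 had 0.299 at 3 h and 0.763 at 5 h. At 3 h these 3 members passed a 2-fold difference, 1 higher and 2 lower, where 6.02% of all genes were at least 2-fold higher and 5.42% at least 2-fold lower. At 0 h 0 of 7 did (2.14% higher and 2.61% lower of all genes). At 1 h Klf4 did (3.26% and 3.34%), and at 5 h Klf4 and Klf6 did (5.81% and 4.82%).

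Seen within each arm, the LPS change of Klf4 at 3 h was -0.57 log2 with melatonin and -3.12 without. That of Klf6 was 1.07 with melatonin and 2.88 without, and that of Klf7 0.34 and 1.66. Klf2 changed by -1.65 with melatonin and -2.41 without, and Klf10 by -3.28 and -3.92. At 5 h Klf7 had nearly equal changes, 1.28 with melatonin and 1.26 without, while Klf4 had -1.49 and -3.23. A limma model with a term that sets the melatonin difference under LPS (the mean of 1, 3 and 5 h) against that at 0 h called 0 of 7 members, and 0 of 20076 genes in all, with 754 genes at an unadjusted p under 0.05. The term was 1.90 for Klf4 (unadjusted p = 0.00811) and 1.07 for Klf2 (unadjusted p = 0.0100), both with an adjusted p of 0.908, and these were the 2 members with an unadjusted p under 0.05. A difference between the arms in the response to LPS was thus not called for any member, with 2 residual degrees of freedom in that model.

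Klf7, Klf13 and Klf9 had further probes above background, and most of these moved together. The 3 probes of Klf7 gave 5 h differences of 1.04, 1.27 and 1.44, all called when each probe was tested on its own, and melatonin differences of -0.89, -0.87 and -0.83, all called too. At 3 h 1 of the 3 was called (adjusted p = 0.0380, against 0.0647 and 0.0581). The second measured probe of Klf13 gave -1.50 at 3 h (adjusted p = 0.00435) and -1.20 at 5 h (adjusted p = 0.00627), beside -1.27 and -0.85 for the first. Its position is listed in the opposite direction to that of the other Klf13 probes, so the strand it reads is not settled. One more Klf13 probe was well above background on 1 of 8 arrays. Both probes of Klf9 had differences that missed the threshold at 3 h, -0.57 and -0.50.

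**Figure D4:**
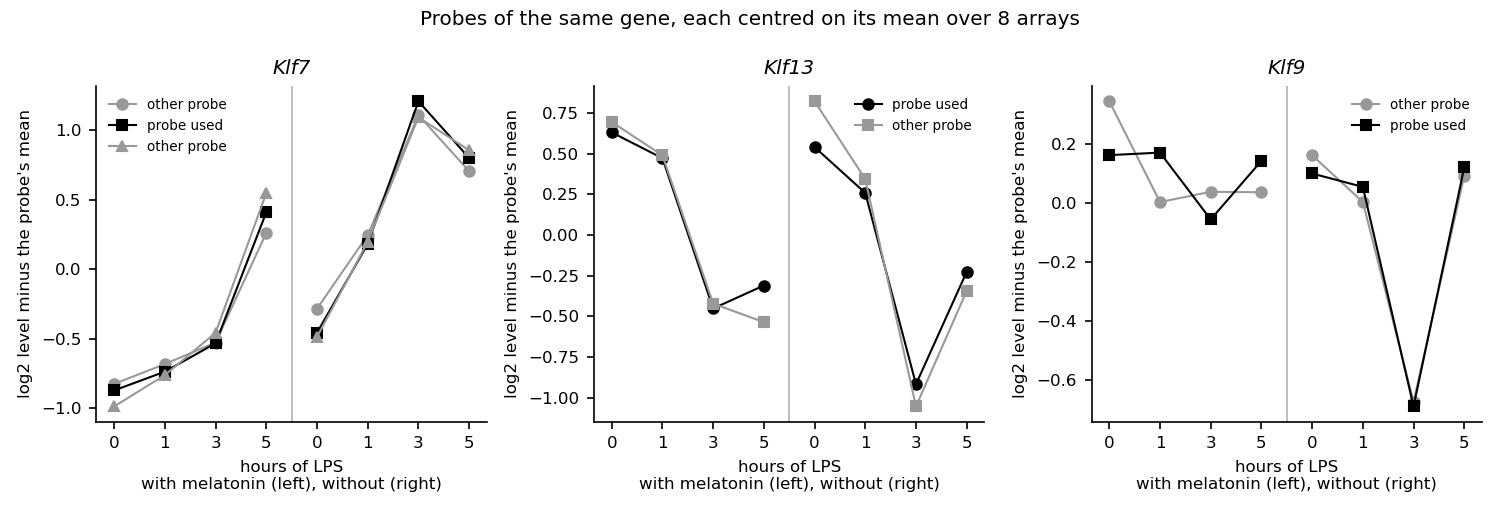
Level of each measured probe of Klf7, Klf13 and Klf9 minus that probe's mean over 8 arrays (y axis, log2) against hours of LPS, with melatonin on the left and without on the right of each panel. The black line is the probe used for the gene, and the grey lines of Klf7 and Klf13 run along it.

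Over the 8 arrays Klf2 and Klf10 had the closest pattern among members that fell (Pearson r = 0.97), and Klf6 and Klf7 had r = 0.92. Klf4 ran opposite to Klf6 (r = -0.97) and to Klf7 (r = -0.95). These points share LPS time and melatonin arm, and the values are descriptions over 8 arrays. Among 7031 genes with a range of at least 1 log2, the gene most like Klf2 was Slc25a23 (r = 0.99), that most like Klf4 Gm26910 (0.99), and that most like Klf6 Gm2172 (0.99). For Klf7 it was Folr1 (0.97), for Klf9 LOC102641428 (0.96), for Klf10 Slc16a12 (0.99) and for Klf13 Tmem57 (1.00). The Spearman rho of the Klf9 pair was 0.57, the lowest of these pairs. In Klf9 only the 3 h array without melatonin stood apart by more than its SD of 1 array (0.17). The part of that array in the r was not tested.

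Of 8 other KLF genes 4 were measurable. At 5 h Klf8 (0.63, adjusted p = 0.0320) and Klf12 (0.49, adjusted p = 0.0464), both known as repressors, rose and 0 fell. Of all genes 24.9% were called higher at 5 h and 19.4% lower. The list median was 0.19, against 0.08 over all genes. Of 6 measured SP genes, the sister family that binds the same GC boxes, 0 were called at 5 h (median -0.00) and 1 at 3 h, Sp3, which fell by 0.46 (adjusted p = 0.0307). At 3 h 18.6% of all genes were called higher and 15.1% lower. The median of the 7 members was -0.85 at 5 h and -1.27 at 3 h, against 0.08 and 0.06 over all genes. With melatonin Klf16 fell by 0.47 (adjusted p = 0.0471), a call lost with quantile normalization. Of the SP genes Sp4 rose by 0.69 while Sp2 and Sp7 fell by 0.35 and 0.30. For melatonin 15.3% of all genes were called higher and 25.3% lower. 

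Of 14 genes for co-factors and turnover of KLF proteins 1 rose and 3 fell at 5 h (median 0.00), where 24.9% of all genes were called higher and 19.4% lower. The acetyltransferase gene Kat2b fell by 1.00 (adjusted p = 0.0208), the ubiquitin ligase gene Smurf1 by 0.81 (adjusted p = 0.0102) and the co-repressor gene Sin3a by 0.55 (adjusted p = 0.0338), while Sin3b rose by 0.43 (adjusted p = 0.00422). With melatonin 3 rose and 2 fell, where 15.3% of all genes were called higher and 25.3% lower. Smurf1 was higher by 0.59 (adjusted p = 0.0119). With quantile normalization 0 rose and 4 fell at 5 h, and 3 rose and 0 fell with melatonin.

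The ERK5 and MEF2 route, which in endothelium switches on Klf2 and Klf4, was measured through 11 genes. Of these 5 fell and 2 rose at 5 h, where 19.4% of all genes were called lower and 24.9% higher, with a median of -0.32 against 0.08 over all genes. The factor gene Mef2c fell by 1.19 (adjusted p = 0.00437), and the genes of the class II deacetylases that repress MEF2 went both ways, Hdac5 down by 1.89 (adjusted p = 0.00162), Hdac4 down by 0.81 (adjusted p = 0.00327) and Hdac7 up by 0.53 (adjusted p = 0.0353). With melatonin 1 rose and 3 fell, where 15.3% of all genes were called higher and 25.3% lower. Mef2c was among those that fell, by 0.52 (adjusted p = 0.0248). With quantile normalization the split was 1 rise and 5 falls at 5 h, and 2 of each with melatonin.

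Genes of the TGF-beta pathway, the inducer after which Klf10 and Klf11 were named, had 5 falls and 2 rises among 12 at 5 h (median -0.09). Of all genes 19.4% were called lower at that time and 24.9% higher. Smad3, a signal transducer, was at least 8.13-fold lower (adjusted p = 0.00801), the inhibitor Smad6 fell by 2.22 (adjusted p = 0.00310) and the receptor gene Tgfbr1 by 1.33 (adjusted p = 0.00403). The ligand gene Tgfb1 rose by 1.21 (adjusted p = 0.000485). An "at least" value sets the bright arrays' mean against the lowest signal that counts as well above background on the dim ones. With melatonin 1 of the 12 rose and 2 fell, where 15.3% of all genes were called higher and 25.3% lower. Tgfb1 fell by 0.80 (adjusted p = 0.00223) and Tgfbr1 rose by 0.67 (adjusted p = 0.0154).

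Among 7 measured genes of the glucocorticoid receptor and its targets, the hormone route of Klf9, 2 rose and 2 fell at 5 h. Of all genes 24.9% were called higher at that time and 19.4% lower. The list median was -0.48, against 0.08 over all genes. Tsc22d3, a glucocorticoid-induced gene, fell by 2.89 (adjusted p = 0.00104) and Fkbp5 by 0.57 (adjusted p = 0.0183), while Zfp36, which destabilises mRNAs of cytokines, rose by 3.86 (adjusted p = 0.000582) and the clock gene Per1 by 0.66 (adjusted p = 0.0197). With melatonin 1 of the 7 rose and 1 fell, where 15.3% of all genes were called higher and 25.3% lower. These were Tsc22d3, which rose by 0.83 (adjusted p = 0.0216), and Per1, which fell by 0.43 (adjusted p = 0.0300).

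Of 10 genes that KLF2 or KLF4 is known to regulate, 7 were measurable, and 5 rose and 0 fell at 5 h, where 24.9% of all genes were called higher and 19.4% lower, with a median of 0.98 against 0.08 over all genes. F3, the tissue factor gene, was at least 4.27-fold higher at 5 h (adjusted p = 0.00253). Hif1a, which KLF2 opposes, rose by 1.00 (adjusted p = 0.000504), and the cell cycle inhibitor gene Cdkn1a, which KLF4 activates, by 0.98 (adjusted p = 0.00355). With melatonin 2 of the 7 rose and 1 fell, where 15.3% of all genes were called higher and 25.3% lower. Those that rose were Cdkn1a (0.42, adjusted p = 0.0221) and Nos3, the gene of endothelial nitric oxide synthase (0.42, adjusted p = 0.0330). Nos3 was also among the genes that rose at 5 h of LPS, by 0.80 (adjusted p = 0.0106).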

How the data were processed

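Transcripts of RAW264.7 cells were measured on 8 arrays, 1 per condition. Scanner intensity had been turned into background-subtracted processed signals by Agilent Feature Extraction 12.0.3.1, per the file headers; mean and local background intensity, as deposited, served 1 alternative. The authors also deposited a log2 table, whose columns hold the same sorted values on all 8 arrays; the sources used here do not name its tool. It served 1 alternative. Other deposited columns were flags (0 or 1) for spots above background, saturated spots (0 found) and outliers.

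Levels were log2 processed signals minus the array's 75th percentile over spots that are no controls (signal 659.1 to 846.1). Control spots (3671 of 62976) and outlier spots did not enter, and repeated spots were averaged. On an array 46.96% to 52.98% of probes stood well above background. Symbols were updated through RefSeq accessions for 1535 probes, of which 0 touched a member. Probes entered (30417) if 2 or more arrays of 8 showed them well above background and all held a value, and a gene took its probe of highest mean (20076 genes). Tests used limma 3.58.1 (R 4.3.3), an additive model of LPS time and melatonin with an intensity trend (3 residual degrees of freedom), 2-sided, called at an adjusted p of 0.05. They were also run on simulated arrays with known changes and independent noise, which checks the code and not the calls in these data. The number of arrays limits the precision.

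The members and gene lists were chosen with earlier results of these data known, so their counts are no independent evidence. All members are named. From each other list, up to 4 genes with the largest change among those called at 5 h are named. Names for other comparisons, and the 5 h value of Nos3, were chosen after their values were seen. A named gene that this rule would add is not reported here. Alternatives were normexp (offset 50), quantile normalization, the deposited table, other filters, a common floor, the probe median, no intensity trend and each array left out.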

Additional observations from a re-analysis of the deposited data

Results flagged for a closer look

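The LPS change of 3 members had opposite signs in the arms. None of these differences was tested at a single time, since each is 1 array against 1. At 1 h Klf2 changed by 0.44 log2 with melatonin and by -0.75 without, a difference of 1.19, and Klf4 changed by 0.29 with melatonin and by -1.14 without, a difference of 1.42. Klf9 changed by 0.0086 with melatonin and -0.045 without at 1 h, a difference of 0.054, and by -0.019 with melatonin and 0.021 without at 5 h, a difference of -0.040. These changes and differences of Klf9 were all smaller in size than its SD of 1 array, 0.17. Over all genes 27.4% had opposite signs in the arms at 1 h and 18.9% at 5 h.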

How the results depend on the processing

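Alternatives were run for each member and for the counts of the other gene lists, not for single genes of those lists. No paired analysis was possible because each condition has 1 array, so no replicate block could be fitted. Testing each probe by itself and using the LPS times of the treatment entry were added after seeing the data. At 3 h the count of 5 members called became 3 without a filter, 3 with the common floor, 4 without an intensity trend, 4 with quantile normalization, 4 with the deposited table, and 2 to 7 with 1 array left out. At 5 h the count of 6 was 5 or 6 with other settings and 4 to 6 with 1 array left out. Between 1 and 3 h the count of 3 was 1 to 4 with 1 array left out. For melatonin the count of 2 became 0 without a filter, 0 with the common floor, 0 without an intensity trend, and 0 to 3 with 1 array left out. With the treatment entry's times 0 members were called at 3 h, at 5 h and between 1 and 3 h, and 3 for melatonin; over all genes these times called 0 for LPS and 3646 for melatonin. The counts of 0 at 1 h, between 3 and 5 h and for melatonin by LPS were 0 under every alternative run. The cause was not tested in any of these. Klf4 was called for melatonin with normexp, among genes above background on all 8 arrays, with the treatment entry's times and without either 0 h array. The term of melatonin by LPS could not be fitted without a 0 h array or with the treatment entry's times.

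Of 812 values 28 changed sign, 0 of them called. With 1 array left out, the 1 h value ranged from -0.69 to 0.38 for Klf2, from -1.38 to 0.52 for Klf4, from -0.012 to 1.15 for Klf6, from -0.12 to 0.079 for Klf9 and from -0.028 to 0.45 for Klf10. Klf10 at 1 h was -0.76 with the treatment entry's times. Klf9 at 5 h was -0.031 with normexp, -0.015 with quantile normalization, -0.012 with the deposited table, -0.094 with the probe median, -0.20 with the entry's times and -0.12 to 0.13 with 1 array left out. Between 3 and 5 h, with 1 array left out, Klf4 ranged from -1.27 to 0.23, Klf6 from -0.69 to 0.56 and Klf7 from -0.32 to 0.85. With the entry's times Klf6 was 0.19, Klf7 -0.10 and Klf13 -0.12. Klf2 for melatonin ranged from -0.021 to 0.40 and Klf13 for melatonin by LPS from -0.025 to 0.25 with 1 array left out. Signal over background gave no level for Klf3 and Klf11.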
